A study of Mus musculus with 2 samples.

Results

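The epithelial keratins described here are 9 genes, Krt8, Krt18, Krt19, Krt7, Krt5, Krt14, Krt15, Krt17 and Krt4, out of 28692 genes counted. They were chosen by name, and each had 1 row in the gene list. Their RNA was counted in single cells of adult mouse lung (strain C57BL/6), sorted by flow cytometry for the epithelial adhesion protein Epcam and profiled by droplet-based 3' sequencing. A Control library was set beside a NAPH library, which came from lung with an airway injury given under that name alone. Neither a dose, a time point nor a count of animals is stated, and for both libraries no further treatment or allele is named. With 1 library in each group there is no replicate check and no test between the groups. Each difference below is between these libraries, and the exact 95% intervals in parentheses cover counting error only.

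Keratins are the intermediate filament proteins of epithelial cells, and a filament forms only from pairs of a type I and a type II keratin. Krt8 (type II) and Krt18 (type I) are the pair of simple epithelia, and Krt7 (type II) and Krt19 (type I) join them in airway and other duct-like epithelia. Krt5 (type II) and Krt14 (type I) form the filaments of basal cells, the stem cells of the pseudostratified airway. Krt15 and Krt17 are type I keratins of basal and stressed or wounded epithelia, and Krt4 is a type II keratin of stratified mucosa. Krt8, with Krt18, Krt19 and Krt7, is also known to mark a state between alveolar type 2 (AT2) and alveolar type 1 (AT1) cells after lung injury.

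In the GENCODE vM21 annotation of mm10 (GRCm38), 5 of the genes lie in the keratin cluster of chromosome 15 and 4 in that of chromosome 11, all of them protein coding. Krt7 lies at chr15:101411043-101430313 on the plus strand, Krt5 at chr15:101707070-101712898 on the minus strand and Krt4 at chr15:101918535-101924735 on the minus strand. Krt8 lies at chr15:101996698-102004482 on the minus strand and Krt18 at chr15:102028180-102032027 on the plus strand. Krt8 and Krt18 are therefore transcribed away from each other, with 23697 bases between them, and Krt18 is the only type I gene of the 5 in this cluster. On chromosome 11 the minus strand holds Krt15 at 100131758-100135928, Krt19 at 100140810-100148665, Krt14 at 100203162-100207548 and Krt17 at 100256217-100261029. The sequences upstream of Krt8 and Krt18 are shown because no other gene was as like Krt8 in level as its neighbour Krt18 (r = 0.970 over the sets of cells described below). They come from RefSeq (GRCm38.p6), read 5′ to 3′ on the strand of each gene, from 250 bases before the RefSeq start up to the first base of the GENCODE gene. Krt8 covers chr15:102004483-102004592 (minus strand) and Krt18 covers chr15:102027966-102028179 (plus strand), and capitals mark the match to GGAAGT, a core of ETS factor sites, found on either strand.
Krt8: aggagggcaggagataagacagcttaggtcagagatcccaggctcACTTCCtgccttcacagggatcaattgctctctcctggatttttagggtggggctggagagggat
Krt18: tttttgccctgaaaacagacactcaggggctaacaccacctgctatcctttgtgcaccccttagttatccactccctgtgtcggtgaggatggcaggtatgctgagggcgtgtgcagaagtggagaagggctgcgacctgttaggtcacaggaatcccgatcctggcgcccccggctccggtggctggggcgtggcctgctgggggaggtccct

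RefSeq promoters were found for 5 of the 9 genes (Krt7, Krt5, Krt14, Krt8 and Krt18). The 250 bases upstream of each RefSeq start were searched on both strands. The windows of Krt7 (101412153-101412402) and Krt14 (100206031-100206280) lie inside the GENCODE genes, and those of Krt8 and Krt18 reach into them. For Krt5 no GENCODE transcript held the bases that follow the RefSeq start. GGAAGT was present for Krt8 and Krt7 and in 19.7% of 32851 promoters. GGGCGG, the GC box, was present for Krt7 alone, at 4 places, and in 32.7% of all promoters. CATTCC, the core of TEAD factor sites, was present for Krt14 alone and in 12.6% of all promoters. Neither TGANTCA (the AP-1 site, in 6.75% of all promoters) nor TATAAA (in 12.4%) was present for any of the 5 genes. These matches describe letters in this window and are not binding sites that were measured.

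Unique molecular identifiers (UMIs) numbered 41699755 over 3298 barcodes in Control and 38497783 over 3685 barcodes in NAPH. A UMI counts 1 captured RNA molecule once, so levels of different genes on this 3' scale are not divided by gene length. A level below is the summed UMIs of a gene per 1000000 UMIs of all cells in a set (CPM). After filtering, 3211 Control and 3572 NAPH cells were kept, and 14 barcodes occurred in both libraries. Cells were sorted into sets by marker UMIs per 10000 UMIs of the cell. AT2 cells had at least 500 of Sftpc, the surfactant protein C gene, and were split at 5 of Areg (a growth factor of the EGF family) plus Sprr1a (a cornified envelope precursor). Secretory cells had at least 1000 of Scgb1a1, goblet-like cells at least 150 of Scgb3a1 plus Bpifb1, and ciliated cells at least 10 of Foxj1, Ccdc153 and Tmem212. In what follows "AT2 cells" are those below the Areg and Sprr1a threshold (1763 Control and 2345 NAPH cells), and "Areg/Sprr1a-high AT2 cells" those above it (27 and 154). There were 613 Control and 121 NAPH secretory cells, 138 and 72 goblet-like cells and 187 and 198 ciliated cells. Every marker of 7 AT2 genes, 5 club genes, 6 goblet genes and 6 ciliated genes had UMIs in the set it names, in both libraries. These lists include the genes that set the gates. AT2 cells of both libraries also had UMIs of all 5 club, 6 goblet and 6 ciliated genes, so presence alone does not tell the sets apart. Median depth was 30152 UMIs in Control secretory cells against 20903 in NAPH, and 5314 in Control ciliated cells against 7947 in NAPH.

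Krt8, Krt18, Krt19 and Krt7 were present in every epithelial set and together made up 98.0% to 100% of the keratin UMIs of the AT2, secretory, goblet-like and ciliated sets. Krt8 in Control was highest in Areg/Sprr1a-high AT2 cells at 912 CPM (796 to 1041), then 759 (708 to 812) in ciliated, 405 in goblet-like, 152 in AT2 and 132 in secretory cells. In NAPH the order of Krt8 began with ciliated cells at 1132 (1085 to 1182) and Areg/Sprr1a-high AT2 cells at 1076 (1025 to 1129), whose intervals overlap, and went on with 389 in both secretory and goblet-like cells and 224 in AT2 cells. Krt18 was highest in Areg/Sprr1a-high AT2 cells of both libraries, at 1056 in Control and 1004 in NAPH. It was lowest in secretory cells of Control, at 169, and in AT2 cells of NAPH, at 223.

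Krt19 had another order, with AT2 cells far below the airway sets. It stood at 545 CPM in Control goblet-like cells, 334 (265 to 415) in Areg/Sprr1a-high AT2 cells, 294 (263 to 328) in ciliated cells, 234 in secretory cells and 40.6 in AT2 cells. In NAPH it was 663 in goblet-like, 536 in secretory, 453 in ciliated, 288 in Areg/Sprr1a-high AT2 and 47.8 in AT2 cells. Krt7 was the least abundant of the 4, on the UMI scale, in Control secretory, goblet-like and ciliated cells. Its Control levels were 508 in Areg/Sprr1a-high AT2, 149 in goblet-like, 107 in ciliated, 86.3 in secretory and 70.6 in AT2 cells.

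**Figure D1:**
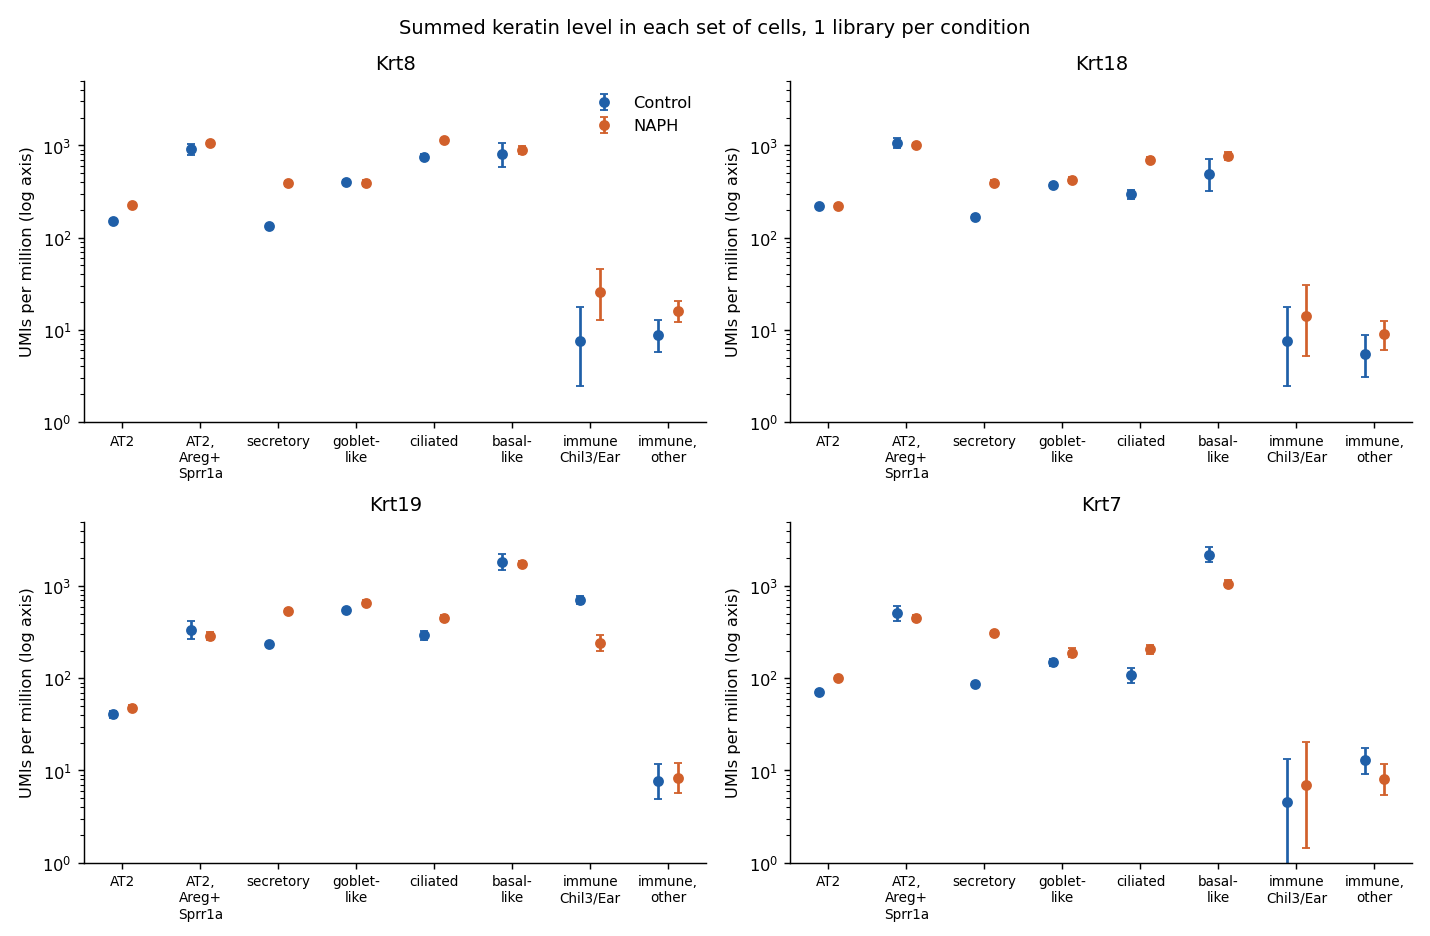
Summed level of Krt8, Krt18, Krt19 and Krt7 (CPM, log axis) in 8 sets of cells of the Control and NAPH libraries, where "AT2, Areg+Sprr1a" are the Areg/Sprr1a-high AT2 cells and bars are exact 95% Poisson intervals. Immune cells outside the Chil3 and Ear set lie at 5.41 to 15.9, and Krt19 reaches 705 in the Control immune cells high in Chil3 and Ear genes.

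The level that free RNA in the droplets can give was read from 336 Control and 412 NAPH immune cells that were not high in Chil3 or Ear genes, with median depths of 8291.5 and 8127 UMIs. There Krt8 was at 8.79 and 15.9 CPM, Krt18 at 5.41 and 8.93, Krt19 at 7.78 and 8.37, and Krt7 at 12.9 and 8.09. After each cell was thinned to 3000 UMIs, which left out no cell of these sets, 1.49% of these Control immune cells and 5.10% of the NAPH ones had a Krt8 UMI. The share in AT2 cells was 31.4% in Control and 38.5% in NAPH (55.2% and 67.5% before thinning). For Krt19, the least abundant of the 4 in AT2 cells, thinned shares were 10.5% and 11.5% in AT2 cells against 1.79% and 3.64% in these immune cells. All 4 keratins thus stood above the level of these immune cells in each of the 5 epithelial sets. For Krt19 this depends on leaving out the Chil3 and Ear cells, a split made after Krt19 was seen there. Over all immune cells Krt19 was at 135 CPM in Control and 33.4 in NAPH, against 40.6 and 47.8 in AT2 cells. Krt5, Krt14, Krt17 and Krt4 had no UMI in Control AT2, Areg/Sprr1a-high AT2 or ciliated cells, and Krt15 had 5, 1 and 0.

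Keratin levels differed within the AT2 cells. Areg/Sprr1a-high AT2 cells had several times the level of Krt8, Krt18, Krt19 and Krt7 found in other AT2 cells of the same library. Ratios here and below are divided by the median ratio of all genes with at least 10 UMIs in the pair, and a gene past 1.5 times on that scale is called higher or lower. In Control the ratio was 5.56 (4.82 to 6.39) for Krt8, 4.48 for Krt18, 7.66 for Krt19 and 6.69 for Krt7. In NAPH it was 4.55 for Krt8, 4.26 for Krt18, 5.70 for Krt19 and 4.25 for Krt7. In Control these 4 were the members with at least 10 UMIs and all 4 were called higher, beside 25.5% of all genes called higher and 13.8% called lower. In NAPH 4 of 6 were called higher, beside 13.2% of all genes called higher and 11.5% called lower, and Krt15 and Krt17 had 1 UMI each in the Areg/Sprr1a-high cells. The 4 keratins summed to nearly the same level in the Areg/Sprr1a-high cells of both libraries, since all 9 members together gave 2815 CPM in Control and 2824 in NAPH. These cells made up 0.841% of the cells kept in Control and 4.31% in NAPH.

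Keratin levels also differed among AT2 cells below the threshold of the set. Krt8 stood at 124 CPM in the 1565 Control AT2 cells with no Areg or Sprr1a UMI, 347 in the 198 cells with up to 5 per 10000, 893 in the 25 cells from 5 to 20, and 1184 (713 to 1849) in the 2 cells above. In NAPH the same bins held 1618, 727, 128 and 26 cells, with Krt8 at 162, 342, 895 and 1971. Krt18, Krt19 and Krt7 were higher in each bin than in the one before in NAPH, from 183 to 1851, from 35.6 to 557 and from 82.7 to 827. Relative to the median gene, Krt8 was at 1.23 (1.15 to 1.31) times its Control level in NAPH cells with none, at 0.946 (0.866 to 1.04) up to 5 and at 0.995 (0.856 to 1.16) from 5 to 20. Krt18 was at 0.911, 0.671 (0.618 to 0.730) and 0.782 (0.679 to 0.904) in the same bins. Median depth was between 7579 and 10431 UMIs in all 8 bins.

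**Figure D2:**
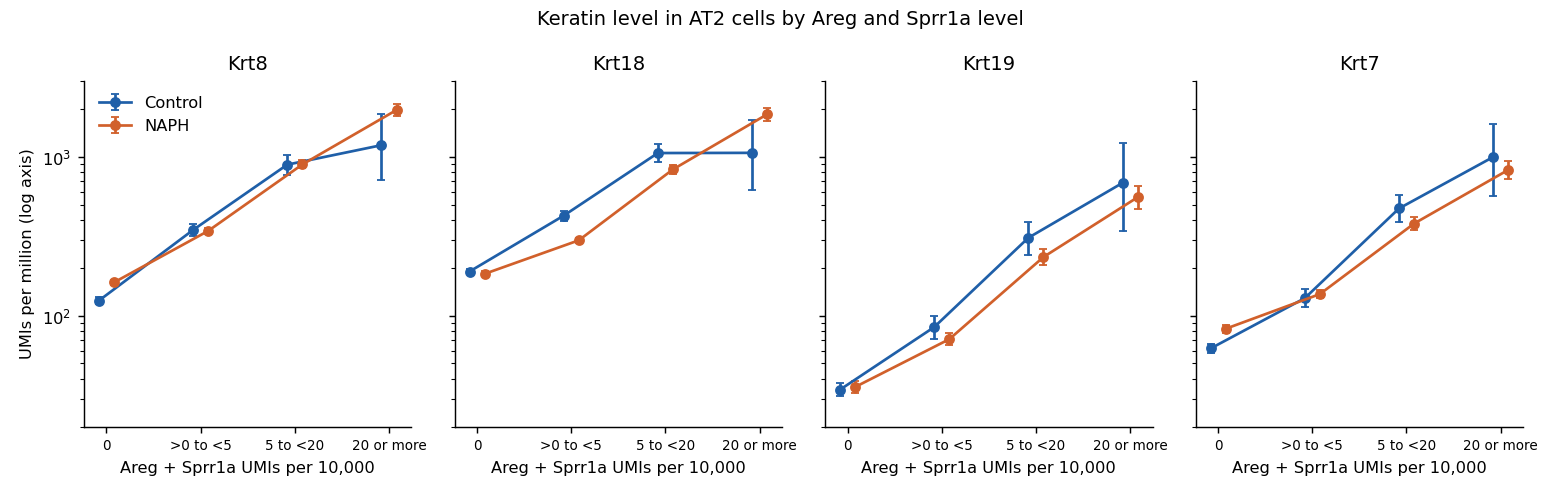
Level of 4 keratins (CPM, log axis) in AT2 cells grouped by their Areg plus Sprr1a UMIs per 10000, for the Control and NAPH libraries, with exact 95% Poisson intervals. Krt8 goes from 124 to 1184 in Control and from 162 to 1971 in NAPH, and the last Control bin holds 2 cells.

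Other genes of the transitional state and of keratin anchorage were read from fixed lists. Of 13 transitional genes that are no keratins, 11 were called higher and 1 lower in Areg/Sprr1a-high AT2 cells of NAPH, with a median log2 ratio of 2.30 where that of all genes is 0. S100a6, a calcium-binding protein, had a ratio of 8.64, and the urokinase receptor gene Plaur 26.6 (45 UMIs against 24) and the AP-1 subunit gene Fosl1 103 (29 against 4, interval 36.1 to 402). Nupr1, a stress-response gene, was lower at 0.629. In Control 8 of 11 were higher and 1 lower, with S100a6 at 9.96 and a median of 2.56 (2.45 with the gene at 0 UMIs on a side placed beyond the rest). Among desmosome and keratin linker genes, 6 of 12 were higher in NAPH and none lower (median 0.60), led by envoplakin (Evpl) at 4.13 and Perp, a desmosome protein, at 2.03. In Control 5 of 12 were higher and 1, Dst, was lower at 0.546 (0.219 to 1.13), with a median of 0.75, or 0.25 with the genes at 0 UMIs on a side placed beyond the rest. Lmna, the nuclear lamin A/C gene, was at 3.33 in NAPH and 3.51 in Control, and the cornified envelope gene Ivl at 14.9 in NAPH. Of the keratins that are no members, those with most UMIs in AT2 cells did not share this pattern, with Krt23 at 0.956 and Krt10 at 0.993 in NAPH. The summed level of 7 AT1 markers was 1194 CPM in Control AT2 cells and 1886 in Areg/Sprr1a-high ones, and 1606 and 1706 in NAPH. Nearly all of it came from 1 gene, Ager, at 1142, 1808, 1513 and 1587 in the same order. The part of the AT1 markers in the keratin levels was not tested.

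Between the libraries, ciliated cells had higher levels of all 4 simple keratins in NAPH, and 2 of these passed 1.5 times. Krt8 was at 759 CPM in Control and 1132 in NAPH, Krt18 at 296 and 702, Krt19 at 294 and 453, and Krt7 at 107 and 206. Relative to the median gene, the ratio was 2.20 (1.95 to 2.49) for Krt18 and 1.78 (1.44 to 2.20) for Krt7, against 1.38 for Krt8 and 1.43 for Krt19. Of the 4 members with at least 10 UMIs, 2 were called higher, beside 18.3% of all genes called higher and 11.7% called lower. After thinning, 44.9% of Control and 72.7% of NAPH ciliated cells had a Krt18 UMI, and 75.4% and 88.4% a Krt8 UMI. Cells with UMIs of both Krt8 and Krt18 made up 35.8% of the thinned Control ciliated cells and 65.7% of the NAPH ones. Of 12 transitional genes, 8 were called higher and none lower in NAPH ciliated cells (median log2 ratio 1.22), led by the growth factor gene Hbegf (65 UMIs against 1) at 35.4 (6.13 to 1419) and Plaur (31 against 1) at 16.9 (2.81 to 688), with S100a6 at 6.95. Among linker genes 4 of 14 were higher and none lower (median 0.45), with desmoglein 2 (Dsg2) at 2.43. The summed level of 6 goblet markers was 210 in Control and 938 in NAPH ciliated cells and that of 7 AT2 markers 3387 and 8031, and their part in the keratin ratios was not tested.

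In secretory cells the 4 simple keratins were all higher in CPM in NAPH. Krt8 was at 132 in Control and 389 in NAPH, Krt18 at 169 and 394, Krt19 at 234 and 536, and Krt7 at 86.3 and 307. The plain ratios were 2.94, 2.33, 2.29 and 3.56. The ratio of the median gene was itself 0.67 above 0 on the log2 scale, while the 5 club genes, Scgb1a1 among them, summed to 637381 CPM in Control and 412056 in NAPH. Relative to it Krt7 stood at 2.24 (2.06 to 2.44) and Krt8 at 1.85 (1.72 to 1.99), while Krt18 at 1.47 and Krt19 at 1.44 did not pass 1.5 times. Krt4 was at 26.2 (7.72 to 138), from 3 UMIs in Control and 19 in NAPH. Thus 3 of 6 members were called higher and 0 lower, beside 15.6% of all genes called higher and 15.8% called lower, and on plain ratios 6 of 6 were higher, beside 56.2%. Krt8 fell short of 1.5 times, at 1.39, when cells that also passed the goblet-like or another gate were counted as secretory. Thinned shares of cells with a Krt7 UMI were 20.9% in Control and 57.0% in NAPH, although unthinned shares were 81.2% and 90.1%. Thinning equalises the total UMIs of cells but not the part that club genes take. These shares are therefore on the scale of the plain ratios.

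The secretory cells of the libraries differed in other ways that were measured beside the keratins. Upk3a, a uroplakin gene that marks variant club cells, had UMIs in 44 of the 613 Control and 61 of the 121 NAPH cells. Krt8 was higher in NAPH both in cells with Upk3a (1.76, 1.5 to 2.08) and in those without (1.63, 1.45 to 1.83). Krt19 was at 1.68 (1.48 to 1.91) with Upk3a and at 0.956 (0.857 to 1.06) without it, and Krt7 at 1.84 and 2.0. All 19 Krt4 UMIs of NAPH secretory cells lay in 6 of the 61 cells with Upk3a. The summed level of 7 AT1 markers was 162 CPM in Control secretory cells and 1024 in NAPH, of which Ager gave 109 and 922. That of 7 AT2 markers was 9506 and 24354. The 6 goblet markers summed to 706 and 2131, and the mesothelial gene Msln was at 0.521 and 140. The part of all these in the ratios was not tested. Of 12 transitional genes 8 were called higher and none lower (median log2 ratio 1.39), with S100a6 at 6.14, the p53 target Cdkn1a at 4.14 and galectin-3 (Lgals3) at 4.13. Of 14 linker genes 4 were higher and 2 lower (median 0.13). Lmna was at 2.18, and the hillock gene Ly6d at 24.9, from 8 and 48 UMIs.

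Goblet-like cells had more Krt19 than secretory or ciliated cells and showed little difference between the libraries. Krt8 was at 405 CPM in Control and 389 in NAPH, Krt18 at 370 and 422, Krt19 at 545 and 663, and Krt7 at 149 and 190. Relative to the median gene Krt8 was at 0.725 (0.661 to 0.794), Krt18 at 0.863, Krt19 at 0.918 and Krt7 at 0.963, and 0 of 5 members passed 1.5 times in either direction, beside 15.2% of all genes called higher and 17.3% called lower. On plain ratios Krt18, Krt19 and Krt7 were above 1, at 1.14, 1.22 and 1.28, so the side of 1 on which they fall depends on the scaling. Of 12 transitional genes 3 were higher and 3 lower (median log2 ratio -0.24), and of 14 linker genes 3 were higher and 4 lower (median -0.12).

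In AT2 cells, Krt8 and Krt7 were moderately higher in NAPH while Krt18 was nearly level. Krt8 was at 152 CPM in Control and 224 in NAPH, Krt7 at 70.6 and 101, Krt19 at 40.6 and 47.8, and Krt18 at 219 and 223. Relative to the median gene this gave 1.38 (1.31 to 1.46) for Krt8, 1.35 (1.25 to 1.46) for Krt7, 1.11 for Krt19 and 0.956 for Krt18. The single member called, of 6, was Krt17 with no Control UMI and 11 NAPH UMIs, beside 9.79% of all genes called higher. Its ratio was 2.07 with 3 counts put in place of the Control 0, and it carries no interval for counting error. The 11 Krt17 UMIs lay in 11 cells with 1 each, and the part of free RNA in them was not tested. Of 12 transitional genes 4 were higher in NAPH AT2 cells and 1, S100a6 at 0.453, was lower (median log2 ratio 0.38). Areg/Sprr1a-high AT2 cells gave 1.15 for Krt8, 0.930 for Krt18, 0.843 for Krt19 and 0.877 for Krt7, and 0 of 4 members were called, beside 21.1% of all genes called higher and 20.7% lower. NAPH AT2 cells held more cells with some Areg or Sprr1a (727 of 2345 against 198 of 1763), and in AT2 cells with none Krt8 was at 1.23 (1.15 to 1.31) and Krt18 at 0.911. They also held more cells with much Lrg1, a secreted glycoprotein gene, since 929 NAPH and 24 Control AT2 cells had at least 20 Lrg1 UMIs per 10000. Within each of the 4 bins of Lrg1, Krt8 was at 1.31 to 1.49, and Krt18, nearly level in the pooled cells, was at 1.10 to 1.19. Krt7 was past 1.5 times in all 4 bins, at 1.60 (1.35 to 1.89), 1.54, 1.56 and 1.77 (0.987 to 3.56) from the lowest Lrg1 to the highest, against 1.35 in the pooled cells. Krt19 was at 1.19, 1.44, 1.65 and 1.73 in the same bins, the last from 5 Control UMIs.

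**Figure D3:**
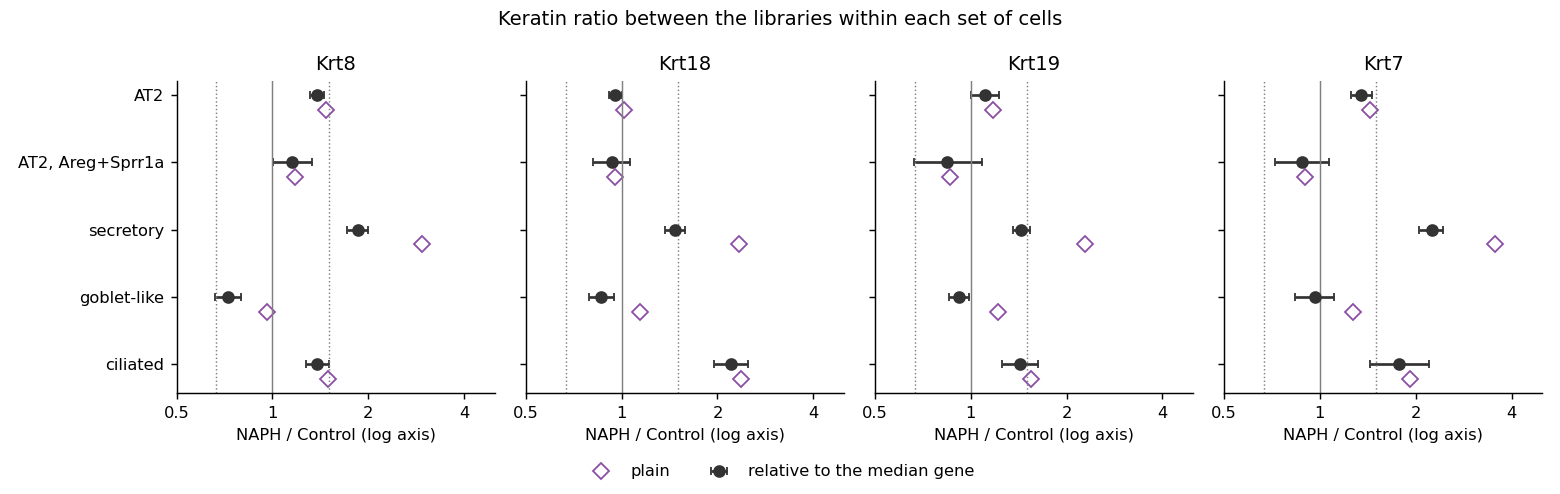
Ratio of NAPH to Control (log axis) for 4 keratins in 5 sets of cells, relative to the median gene (filled, with exact 95% intervals) and plain (open diamonds), with dotted lines at 1.5 times in each direction. Krt8 and Krt7 in secretory cells and Krt18 and Krt7 in ciliated cells lie past 1.5 times on both scales, and no goblet-like or AT2 value does.

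Because a filament needs both types, the ratio of Krt8 to Krt18 UMIs was read in each set. In Control it ranged from 0.695 (0.657 to 0.735) in AT2 cells and 0.782 in secretory cells to 1.10 in goblet-like and 2.56 (2.25 to 2.92) in ciliated cells. In NAPH it was 1.01 (0.967 to 1.04) in AT2, 0.986 in secretory, 0.921 in goblet-like and 1.61 (1.51 to 1.73) in ciliated cells. The ratio was thus higher in NAPH than in Control in AT2 and secretory cells and lower in ciliated cells, with intervals that do not overlap. In Areg/Sprr1a-high AT2 cells the ratio was 0.863 (0.718 to 1.04) in Control and 1.07 (0.999 to 1.15) in NAPH. In Control AT2 cells it was 0.654 where Lrg1 had no UMI and 0.761, 0.753 and 0.868 (0.528 to 1.42) in the higher bins, and in NAPH it was 0.722, 0.966, 1.02 and 1.08. Such a ratio is between genes whose capture may differ, so its change between sets can be read but not its absolute value.

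**Figure D4:**
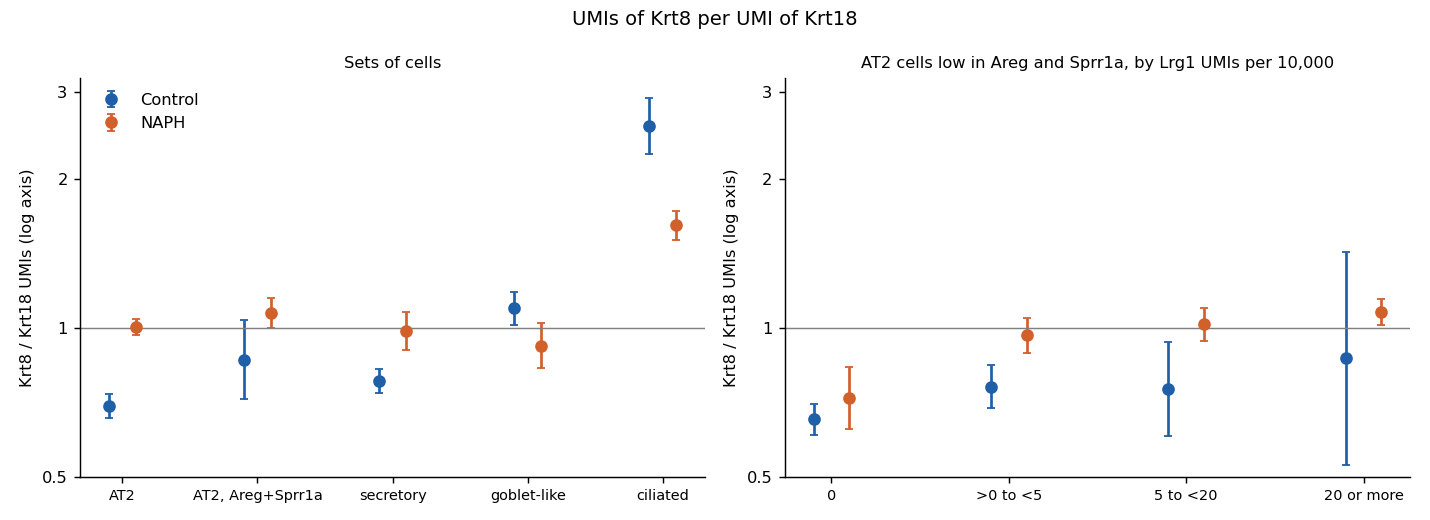
Krt8 UMIs per Krt18 UMI (log axis) in 5 sets of cells (left) and in AT2 cells by Lrg1 UMIs per 10000 (right), in Control and NAPH, with exact 95% intervals and a line at 1. Ciliated cells lie at 2.56 in Control and 1.61 in NAPH, and AT2 cells at 0.695 and 1.01.

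Summed over all 9 members, the ratio of type I to type II keratin UMIs was 1.88 in Control and 1.35 in NAPH secretory cells, and 1.68 and 1.91 in goblet-like cells. It was 0.681 and 0.863 in ciliated cells, and 1.17 and 0.835 in AT2 cells. Here too only the change between sets can be read, since capture may differ between genes. Krt19 made up 37.1% of the keratin UMIs of Control secretory cells and 36.7% of those of goblet-like cells, against 8.40% in AT2 cells. Krt8 alone made up 52.1% in Control ciliated cells.

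Krt5, Krt14 and Krt17 lay mostly in cells recognised by other basal genes. A basal-like set was made of cells in no other set with UMIs of at least 2 of the 5 genes Trp63, Dapl1, Aqp3, Ngfr and Serpinb5, none of them a keratin. It held 10 Control and 52 NAPH cells, with median depths of 5514 and 8444 UMIs. These sets held 96.6% of the Krt5 UMIs of Control and 95.3% of those of NAPH, and 96% and 90% of those of Krt17. Krt5 was at 1020 CPM (771 to 1325) in the Control basal-like cells and 364 (313 to 421) in the NAPH ones. Of the Control cells 10 of 10 had a Krt5 UMI (69.2% to 100%), and of the NAPH cells 24 of 52 (32.2% to 60.5%). Requiring a UMI of Trp63, the transcription factor of basal cells, gave 8 of 8 in Control and 17 of 37 in NAPH.

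Krt14 had no UMI in any Control cell, and 92 UMIs in 12 NAPH cells. Of these, 87 UMIs lay in 9 basal-like cells, and all 9 also had Krt5 UMIs. Krt14 was thus found in 9 of 52 NAPH and 0 of 10 Control basal-like cells, and the Control cells were both fewer and shallower. In the other epithelial sets Krt5 had 2 UMIs in Control secretory cells, and in NAPH 3 in AT2, 1 in goblet-like and 1 in ciliated cells. Krt17 had 1 UMI in secretory cells of each library, and in NAPH 2 in goblet-like and 2 in ciliated cells beside the 11 in AT2 cells. Krt14 had 2 UMIs in NAPH AT2 cells and none in the other epithelial sets outside the basal-like one. In basal-like cells Krt17 was at 437 (280 to 651) in Control and 851 (772 to 936) in NAPH. It had UMIs in 7 of 10 and 35 of 52 cells, and in NAPH 14 of the 35 had no Krt5 UMI. Krt15 was the most abundant keratin of the Control basal-like cells, at 3115 (2666 to 3619) in 9 of 10 cells, and was at 489 (429 to 554) in 28 of 52 NAPH cells. In NAPH 10 of 52 cells had none of Krt5, Krt14, Krt15 and Krt17.

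Over all cells Krt4 gave 12 Control and 136 NAPH UMIs. Among the latter, 77 lay in 11 basal-like cells, with 28 in 1 cell and 18 in another, and 7 of the 11 cells had no Krt5 UMI. In goblet-like cells Krt4 had 1 UMI in Control and 7 in NAPH, the latter in 4 cells. The ratio was 10.3 (1.32 to 464) relative to the median gene, but the pair is under the 10 UMIs needed for a call. NAPH also held 4 Krt4 UMIs in ciliated and 2 in AT2 cells. Krt13, its usual type I partner in hillock and stratified epithelium, had UMIs in 2 of the 52 NAPH basal-like cells. Krt6a had 24 UMIs there and none in Control. The simple keratins were also high in basal-like cells, with Krt19 at 1822 in Control and 1738 in NAPH, and Krt7 at 2204 and 1060. Fibroblast markers summed to 1603 CPM in the Control basal-like cells, all from Dcn, and to 137 in NAPH. The mesothelial gene Msln was at 555 in NAPH and at 0 in Control, with Upk3b, Wt1 and Lrrn4 at 0 in both, and the part of these in the keratin values was not tested. The 5 basal markers summed to 3498 CPM in Control and 1455 in NAPH basal-like cells, and the 6 goblet markers to 128 and 672. Single airway secretory genes also differed, with Scgb3a2 at 419 in Control and 5126 in NAPH, Bpifb1 at 0 and 195, and Agr2 at 0 and 72.4, and their part was not tested either. With 10 Control cells, any difference between the libraries in this set rests on few cells.

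**Figure D5:**
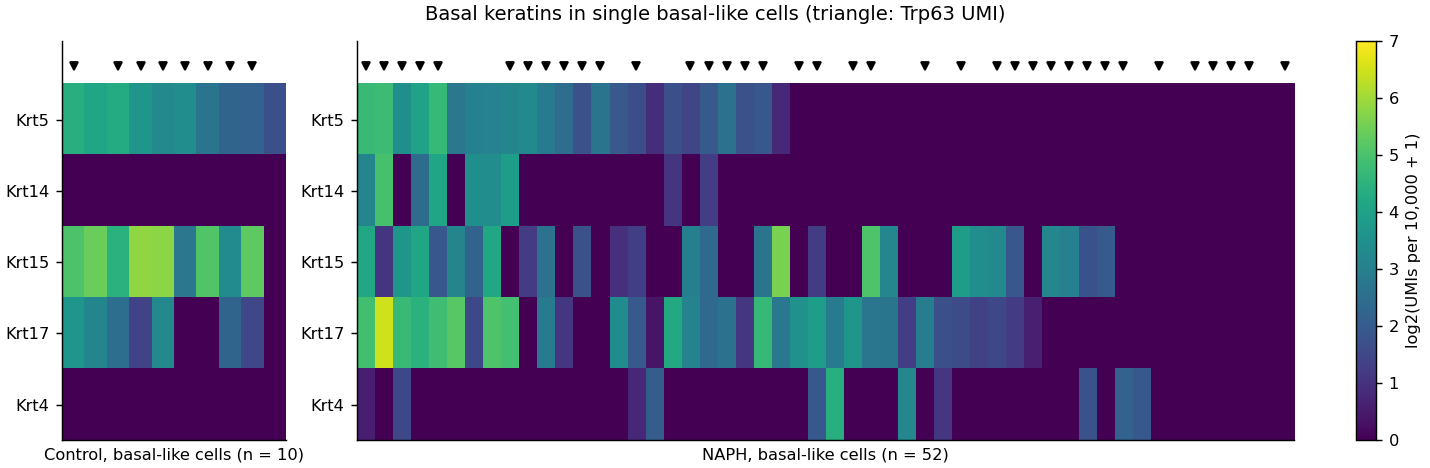
UMIs per 10000 of 5 keratins (rows, as log2 of the value plus 1) in each of 10 Control and 52 NAPH basal-like cells (columns, ordered by Krt5), where triangles mark cells with a Trp63 UMI. Krt5 is present in 10 of 10 Control and 24 of 52 NAPH cells, and Krt14 in 9 NAPH cells that also have Krt5.

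Krt15 was the basal-type keratin that also appeared outside the basal-like set, in a few cells with many UMIs each. In Control 153 of its 386 UMIs lay in 32 secretory cells, of which 10 had at least 2 UMIs and 1 had 62. Another 54 lay in 14 goblet-like cells. The level was 8.86 CPM in Control secretory cells and 15.2 in NAPH, and 15.6 and 28.1 in goblet-like cells. Relative to the median gene this was 1.08 (0.745 to 1.54) and 1.36 (0.909 to 2.04). In NAPH the 40 secretory UMIs lay in 10 cells, 3 of them with at least 2. The 50 goblet-like UMIs lay in 7 cells, 2 of them with at least 2, so both ratios rest on few cells. The 10 Control secretory cells with at least 2 Krt15 UMIs had 934 CPM of S100a6 against 39.2 in the other 603, 677 against 28.2 of lactotransferrin (Ltf), and 1367 against 182 of Bpifa1, a secreted airway protein. These companion genes were listed after their values were seen. In ciliated cells Krt15 had 2 UMIs in NAPH and none in Control. In secretory cells with Upk3a, Krt15 was at 54.4 in Control, from 71 UMIs in 2 of 44 cells, and at 22.9 in NAPH, from 35 UMIs in 6 of 61 cells. Relative to the median gene, Krt15 was at 0.256 (0.166 to 0.389) with Upk3a and at 0.586 (0.185 to 1.42) without it, both under the pooled 1.08.

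Krt19 was also found in immune cells of the sort. Immune cells with at least 10 UMIs per 10000 of Chil3 and Ear genes, which alveolar macrophages are known for, had 705 CPM of Krt19 (643 to 772) in 96 Control cells and 243 (198 to 294) in 67 NAPH cells. The other immune cells had 7.78 and 8.37. In the Chil3 and Ear set Krt19 was in 77.1% of thinned Control and 40.3% of thinned NAPH cells, while Krt18 was at 7.58 and 14.0 CPM. The ratio of NAPH to Control was 0.360 (0.288 to 0.446). Control immune cells with at least 2 Krt19 UMIs had 9143 CPM of Chil3 against 334 in the other 358 immune cells, and 1274 against 52.8 of lipoprotein lipase (Lpl). The split by Chil3 and Ear genes was made after Krt19 was seen there, so the high Chil3 is no separate result. These companion genes, too, were listed after their values were seen. Krt79 was the companion keratin, with 262 of its 292 Control UMIs and 80 of its 104 NAPH UMIs in this set and 0 in the other immune cells.

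Of 42 other keratin genes counted, 5 had at least 30 UMIs. Krt23, a type I keratin, had 3086, of which 1080 lay in Control and 1216 in NAPH AT2 cells, and it was lower in NAPH AT2 cells at 0.637 (0.586 to 0.692), beside 9.81% of all genes called lower. Krt10 had 1196 UMIs, Krt79 396, Krt13 103 and Krt1 101. Krt1 lay mostly in ciliated cells, with 29 UMIs in Control and 31 in NAPH, and 54 of the 103 Krt13 UMIs lay in immune cells outside the Chil3 and Ear set. Of 13 linker genes in AT2 cells, 1 was called higher in NAPH, the integrin subunit gene Itga6 at 3.77, beside 9.79% of all genes. Another 3 were called lower, with Dst at 0.565 among them, beside 9.81%.

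The genes whose level was most like each keratin were read over 13 points, each a set of at least 20 cells in 1 library, as Pearson's r of log2 of CPM plus 10. The points share 2 libraries, so r is a description. Krt8 was most like Krt18 (r = 0.970), then Fam129b (0.956) and the claudin gene Cldn7 (0.948). Krt18 was next most like Npdc1 (0.946) and Rab25 (0.944). Krt7 was most like Sfn (0.972), the 14-3-3 sigma gene, then S100a16 (0.957) and Krt18 (0.931). Krt19 was most like F3, the tissue factor gene (0.882), then Gpx2 (0.854) and Fxyd3 (0.835), and its r with Krt8 was 0.653. Krt15 was most like the uroplakin gene Upk1b (0.982). The Control basal-like cells, with 44.3% of the Krt15 UMIs of Control, are not among the points, since they are under 20 cells. Among the points kept, Krt15 was highest in NAPH basal-like cells. For Krt5, Krt14, Krt17 and Krt4 the likeness rests on the NAPH basal-like point, where each was far above the other points. Krt5 was most like Krt14, Krt17 and Trp63, with r of 0.9998, 0.9998 and 0.9994. Trp63 is among the genes by which the basal-like cells were chosen, so its high level at that point was set by the choice. Krt17 was also like Ighg3 and Krt4 like Jchain, genes of antibody-producing plasma cells, and in NAPH basal-like cells all 723 Ighg3 and all 100 Jchain UMIs lay in 1 of the 52 cells. That cell also had 4 Krt5 and 2 Trp63 UMIs, and the part of its RNA in the keratin values was not tested.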

How the data were processed

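The deposited files hold raw UMI counts per gene and barcode for each library, which the authors made with Cell Ranger against mm10, per the submitters' processing notes. The version, the settings and the cell calling rule, not given in the sources used here, may have shaped which barcodes were kept. Cells had to have 500 genes, 1000 UMIs and at most 20% mitochondrial UMIs, which 0 Control and 4 NAPH barcodes failed. Scrublet in scanpy 1.11.5 called 0.243% of Control and 0.0815% of NAPH barcodes as doublets, under the 0.5% at which it was taken to work, so the cells with the highest scores were removed at 0.8% per 1000 barcodes (87 and 109). A cell that passed several gates was left out (11 and 17 cells), except that the goblet-like gate took precedence over the secretory one. Such gates cut a range of levels and are not cell types by themselves.

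UMIs were summed per set and library and given per 1000000 UMIs of the set (CPM). A ratio has an exact conditional Poisson interval and was divided by the median ratio of all genes with at least 10 UMIs in the pair, in which a gene with 0 UMIs on a side counts as beyond every other. Shares of cells were read after thinning each cell to 3000 UMIs. The ratios, the division by the median and the calls were tested on simulated Poisson counts of AT2, secretory and ciliated cells. The genes with known ratios there had at least 30 expected UMIs. Thinning, genes with few UMIs and UMIs gathered in few cells were not tested in this way. The keratins, gene lists, gates and thresholds were chosen with earlier results of these data known, and the immune, Trp63, Upk3a and Lrg1 subsets after the values were seen. The 9 keratins are described in the sets where they had UMIs. Of the other lists, up to 3 of the highest and 3 of the lowest ratios with at least 30 UMIs are named, with Krt6a and, where its ratio was not among these, S100a6 named outside that rule after their values were seen. Of 28692 gene IDs 28339 were found in GENCODE vM21. The counting of reads shared by near copies such as Krt14, Krt16 and Krt17 was not stated, so their levels are uncertain to that extent, and protein sequences were not used here. Scaling by edgeR 4.0.16 (R 4.3.3) was among 10 alternatives.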

Additional observations from a re-analysis of the deposited data

Results flagged for a closer look

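The ratio of NAPH to Control relative to the median gene lay on opposite sides of 1 in different sets of cells, with counting intervals that left out 1 on both sides, for 3 keratins. Krt8 was at 0.725 in goblet-like and 1.85 in secretory cells. Krt18 was at 0.863 in goblet-like and 2.20 in ciliated cells. Krt19 was at 0.918 in goblet-like and 1.44 in secretory cells. These differences between sets were not tested, and on plain ratios the goblet-like values of Krt18 and Krt19 were above 1, at 1.14 and 1.22.

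Keratin RNA was also found in cells outside the 5 epithelial gates. Krt19 stood at 705 CPM in Control and 243 in NAPH immune cells high in Chil3 and Ear genes, against 7.78 and 8.37 in the other immune cells. Krt4 stood at 12.1 in the Control cells of that set, from 8 UMIs in 7 cells, against 0 in the other immune cells. In the 134 NAPH cells that passed no gate at all, Krt7 was at 694 CPM, Krt15 at 125, Krt17 at 23.5 and Krt4 at 18.8, each above the upper limit in the AT2, secretory, goblet-like, ciliated and other immune cells of NAPH but below the level in its basal-like cells. Of these, the 160 Krt15 UMIs lay in 4 cells and 28 of the 30 Krt17 UMIs in 1 cell. The NAPH cells outside the gates are mixed, and their largest marker sums were 30784 CPM of club and 23557 of AT2 markers. The other NAPH immune cells had 2766 and 5666 of these. The cells outside the gates also had 2066 CPM of AT1, 1219 of neuroendocrine and 743 of fibroblast markers. The part of these in the keratin values was not tested.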

How the results depend on the processing

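The 4 simple keratins were called higher in Areg/Sprr1a-high than in other AT2 cells under all 10 alternatives in NAPH and under the 9 that gave a value in Control. With the gates doubled Krt17, at 3.90, made the NAPH count 5. With the gates doubled, 8 Control cells passed, so that ratio and NAPH over Control in these cells were not given. In AT2 cells, NAPH over Control, the count of members called higher was 2 with cells counted in every gate they pass, 2 with the gates doubled and 2 with each cell weighing the same (Krt15 and Krt17), and 0 after thinning and 0 with at least 30 UMIs. In secretory cells it was 6 on plain ratios, beside 56.2% of all genes. The count called lower there was 1 (Krt15) with the gates doubled and 1 with each cell weighing the same. In goblet-like cells Krt15 made the count called higher 1 on plain ratios, 1 with the gates doubled and 1 after thinning, and Krt8 made the count called lower 1 after thinning and 1 with each cell weighing the same. In ciliated cells it was 3 on plain ratios, which added Krt19 at 1.54, and 4 with no doublets removed, which added Krt15 and Krt17. Apart from the 56.2%, the share of all genes called under each alternative is not given here, so these counts cannot be read against it. The causes were not tested. No ratio called under the main settings changed direction. Krt15 in secretory cells, not called there, was called higher on plain ratios and lower under the 2 alternatives named above. Of 35 single ratios, 35 kept their call with TMM scaling and 30 on plain ratios. The median over genes with at least 10 expected UMIs on each side, an alternative chosen after seeing the data, kept 35 of 35.

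The calls of Krt17 in AT2 cells and Krt4 in secretory cells rest on 11 and 19 NAPH UMIs, and Control levels in Areg/Sprr1a-high AT2 and basal-like cells on 27 and 10 cells. No paired analysis was possible because each group is 1 library.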
